A study of Mus musculus with 7 samples.

Results

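The genes described here are 10 genes of pigment cells, of 48440 genes listed in the count table: *Pmel*, *Dct*, *Tyr*, *Tyrp1*, *Mlana*, *Slc45a2*, *Mitf*, *Trpm1*, *Ttr* and *Rpe65*. They were chosen by name, as genes of the pigment epithelium and of melanocytes, after high values of pigment genes had been seen in 1 heterozygous library (Het1). Their levels in Het1 are therefore given as a description, with no test. Of the 10, 8 are used by pigment cells of both kinds, and *Rpe65* and *Ttr* are the 2 that were set apart as pigment epithelium genes. All but *Rpe65* passed the filter on low counts, so 9 of the 10 could be tested.

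Bulk mRNA was sequenced from pooled mouse retinas of embryonic day 16 (E16), in 7 stranded libraries. The WT library has the genotype Chx10Cre and was made from 6 retinas. Libraries Het1, Het2 and Het3 have the genotype Chx10-Cre;Ptbp1lox/WT and came from 5, 5 and 6 retinas, and KO1, KO2 and KO3 have the genotype Chx10-Cre;Ptbp1lox/lox and came from 4, 4 and 6. Every library thus carries Chx10-Cre, a Cre fused to GFP and driven by the Chx10 promoter in retinal progenitors, so that the floxed *Ptbp1* promoter and first exon are removed in these progenitors and the cells they give rise to. No treatment was given, each library is a pool of retinas, and for the single WT library no error can be given.

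Melanin is made inside melanosomes, organelles that mature on fibrils of the protein *Pmel*. Tyrosinase (*Tyr*) carries out the rate-limiting oxidation of tyrosine, and its relatives *Tyrp1* and *Dct* act on later intermediates. *Mitf* is the transcription factor that switches on these genes in both pigmented tissues of the eye, which are the pigment epithelium, a sheet of neuroepithelial origin behind the retina that continues into the ciliary body and iris, and the melanocytes of the choroid and iris stroma, which come from the neural crest. *Rpe65*, the isomerase of the visual cycle, belongs to the pigment epithelium and not to melanocytes. The neural retina makes no pigment, but its ON bipolar cells later use the channel *Trpm1*.

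*Mitf* acts on its target genes through the M-box, a hexamer core of the E-box kind with a flanking T. RefSeq promoters of GRCm38.p6, each of 300 bases from 250 before the annotated start to 50 after it, were at hand for 6 of the 10 genes (*Dct*, *Mitf*, *Rpe65*, *Trpm1*, *Tyr* and *Tyrp1*), with 9 promoters in all. They are shown for the 3 enzymes and for the upstream start of *Trpm1*, which hold the 7-letter M-box TCATGTG, and for *Rpe65*, which does not. This choice was made with the levels in view. The *Mitf* promoters, not printed, do not hold it either, and *Mitf* was also highest in Het1. Any part of the M-box in the levels was not tested. Each is written 5′ to 3′ on the strand of its gene, and capitals mark TCATGTG or its reverse complement CACATGA. The positions are chr7:87493463-87493762 on the minus strand for *Tyr*, chr4:80833963-80834262 on the plus strand for *Tyrp1*, chr14:118052197-118052496 on the minus strand for *Dct*, chr7:64153585-64153884 on the plus strand for *Trpm1* and chr3:159598931-159599230 on the plus strand for *Rpe65*.
Tyr: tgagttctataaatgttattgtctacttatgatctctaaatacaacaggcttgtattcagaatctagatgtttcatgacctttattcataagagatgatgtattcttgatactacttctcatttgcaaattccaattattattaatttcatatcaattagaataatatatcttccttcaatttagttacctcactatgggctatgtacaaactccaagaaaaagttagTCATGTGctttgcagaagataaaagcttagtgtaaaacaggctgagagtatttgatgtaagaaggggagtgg
Tyrp1: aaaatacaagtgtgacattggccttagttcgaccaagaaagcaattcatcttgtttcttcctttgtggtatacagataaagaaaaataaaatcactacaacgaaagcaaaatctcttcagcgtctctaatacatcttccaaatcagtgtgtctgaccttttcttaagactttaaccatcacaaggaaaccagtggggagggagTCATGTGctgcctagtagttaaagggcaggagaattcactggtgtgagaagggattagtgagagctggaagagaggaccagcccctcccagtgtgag
Dct: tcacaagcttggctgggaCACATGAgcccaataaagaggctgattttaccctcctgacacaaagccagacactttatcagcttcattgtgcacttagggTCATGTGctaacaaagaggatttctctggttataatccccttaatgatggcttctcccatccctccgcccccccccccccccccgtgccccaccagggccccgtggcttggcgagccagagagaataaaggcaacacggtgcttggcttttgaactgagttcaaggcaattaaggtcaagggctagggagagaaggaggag
Trpm1: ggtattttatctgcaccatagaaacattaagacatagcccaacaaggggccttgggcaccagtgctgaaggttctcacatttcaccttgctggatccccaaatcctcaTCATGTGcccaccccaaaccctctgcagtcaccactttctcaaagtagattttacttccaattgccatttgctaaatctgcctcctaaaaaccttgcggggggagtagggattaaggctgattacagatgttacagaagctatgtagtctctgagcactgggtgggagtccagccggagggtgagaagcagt
Rpe65: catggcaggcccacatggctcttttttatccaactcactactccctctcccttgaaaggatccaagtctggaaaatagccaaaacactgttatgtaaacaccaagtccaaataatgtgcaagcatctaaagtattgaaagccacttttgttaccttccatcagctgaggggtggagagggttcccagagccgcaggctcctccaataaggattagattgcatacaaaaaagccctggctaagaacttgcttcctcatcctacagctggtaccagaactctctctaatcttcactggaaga

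The first base of the match lay 22 bases before the start of *Tyr*, 47 before that of *Tyrp1* and 142 before that of *Trpm1*. *Dct* had 2 matches, at 151 bases on the gene's strand and at 232 bases on the opposite strand. TCATGTG was found on either strand in 1239 of 32851 promoters of this length (3.77%). Its shorter core CATGTG, which every M-box match contains, was found in 14.2% of them and also in *Rpe65*, 239 bases before the start on the opposite strand, and at the downstream start of *Trpm1*. The palindromic E-box CACGTG, held by 7.15% of promoters, was found at that downstream start of *Trpm1* and at no other of the 9. TAATCC, a site of the Otx factors that work with *Mitf* in the pigment epithelium, was held by 7.06% of promoters and matched at *Dct*, *Tyrp1*, *Rpe65*, the upstream *Trpm1* start and 1 of the 3 *Mitf* starts. None of the 3 *Mitf* promoters held an M-box. A match of letters is a description of the window and not a site that was measured.

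The counts on genes summed to 120593979 to 171117305 per library. Levels are given as CPM, counts scaled to the size of the library after TMM normalization. *Ptbp1*, the deleted gene, was at 381 CPM in WT, at 210 to 234 CPM in the Het libraries and at 27.9, 6.04 and 46.9 CPM in KO1, KO2 and KO3, in the order of the labels. The 10 neural retina markers of the list used here summed to 3143 to 3639 CPM and none was at 0 in any library. Het1 stood apart from the rest in genes of tissues around the eye. In bulk RNA, fewer cells of a type and less RNA per cell cannot be told apart.

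*Pmel*, the fibril protein, was the most abundant of the 10 genes per kb of exon in every library. The gene lies at chr10:128704195-128720238 on the plus strand (GRCm38), where its ends overlap *Cdk2* and *Dgka* on the other strand. *Pmel* was at 16.8 CPM in WT, at 320.6, 15.4 and 34.3 CPM in Het1, Het2 and Het3, and at 15.5, 12.6 and 29.5 CPM in KO1, KO2 and KO3. Het1 was 19.8 times the median of the other 6 libraries and 9.35 times the highest of them, while the ranges of the other Het libraries and of the KO libraries overlapped. The Het mean of 123 ± 171 CPM (SD, n = 3) beside the KO mean of 19.2 ± 9.06 CPM (SD, n = 3) was thus set by 1 library.

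The tyrosinase family was also highest in Het1. *Tyr* was at 2.32 CPM in WT, at 36.6, 2.27 and 3.95 CPM in the Het libraries and at 1.77, 1.29 and 4.47 CPM in the KO libraries. *Tyrp1* was at 5.29 CPM in WT, at 58.2, 5.23 and 8.53 CPM in Het and at 2.66, 2.53 and 10.3 CPM in KO. *Dct*, the dopachrome tautomerase, was at 5.15 CPM in WT, at 98.1, 4.70 and 11.2 CPM in Het and at 5.52, 2.54 and 9.33 CPM in KO. In all 3 enzymes Het1 was far above the rest, Het3 and KO3 came next, and KO2 was lowest. Het1 was 16, 11.1 and 18.4 times the median of the other libraries for *Tyr*, *Tyrp1* and *Dct*.

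*Mlana*, a small membrane protein of early melanosomes, was at 0.518 CPM in WT, at 6.10, 0.361 and 0.791 CPM in Het and at 0.302, 0.167 and 0.601 CPM in KO. *Slc45a2*, the transporter that sets melanosomal pH, was at 0.289 CPM in WT, at 3.79, 0.294 and 0.639 CPM in Het and at 0.196, 0.228 and 0.398 CPM in KO. Both were low genes outside Het1, with 22 to 120 counts for *Mlana* and 26 to 97 for *Slc45a2*, and both were again highest in Het1, at 13.9 and 13.0 times the median of the others.

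The regulator and the channel were also highest in Het1, by less. *Mitf*, at chr6:97807052-98021349 on the plus strand, was at 4.57 CPM in WT, at 11.3, 4.19 and 5.94 CPM in Het and at 1.91, 2.01 and 7.29 CPM in KO. *Trpm1* was at 21.2 CPM in WT, at 117, 23.6 and 37.8 CPM in Het and at 6.16, 4.44 and 41.9 CPM in KO. Het1 was 2.58 times the median of the other 6 libraries for *Mitf* and 5.22 times for *Trpm1*. For both genes KO1 and KO2 were the lowest libraries, and KO3 was above WT, Het2 and Het3.

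An intron of *Trpm1* holds the gene of the microRNA miR-211, whose relative miR-204 lies in *Trpm3*, another pigment epithelium gene. Both are shown because they accompany genes described here, as the mature RefSeq sequences with the seed (bases 2 to 8) in capitals.
miR-211-5p: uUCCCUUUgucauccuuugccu
miR-204-5p: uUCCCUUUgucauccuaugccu
The mature forms share their seed and differ at 1 of 22 positions. The hairpin genes *Mir211* and *Mir204* had at most 2 counts in any of these mRNA libraries, which do not measure mature microRNAs.

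The pair set apart as pigment epithelium genes gave different pictures. *Rpe65* had 0 counts in WT and in all 3 Het libraries, and 0, 2 and 1 counts in KO1, KO2 and KO3. A count of 0 allows up to 0.0177 CPM in Het1 and up to 0.0252 CPM in the shallowest library, Het2 (3 counts, counting error only). *Rpe65* was therefore not detectable at this depth in the library with the highest level of all the other members. Whether the pigment epithelium of E16 expresses *Rpe65* was not tested. *Ttr*, the carrier of thyroxine and of the retinol-binding protein *Rbp4*, which is made by the pigment epithelium, the choroid plexus and the liver, was at 0.498 CPM in WT, at 7.59, 0.713 and 0.488 CPM in Het and at 0.936, 0.836 and 0.946 CPM in KO. *Ttr* was 9.79 times the median of the others in Het1, but its order among the other 6 libraries was not that of the melanogenic genes, with WT and Het3 lowest and the 3 KO libraries highest.

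**Figure D1:**
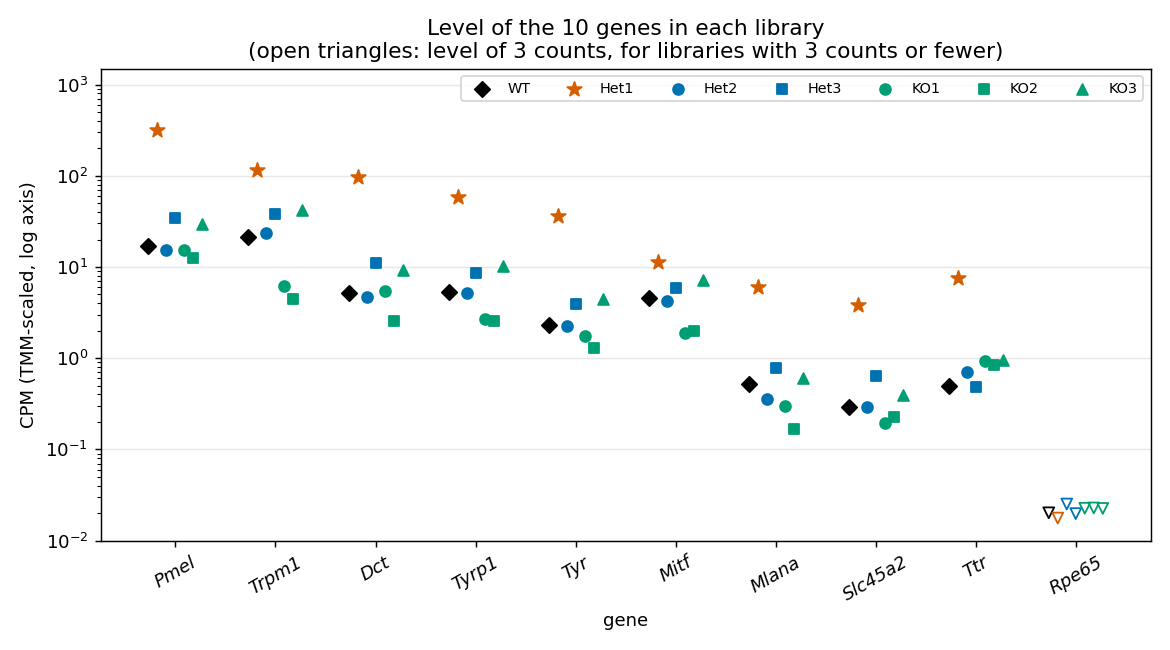
Level of each of the 10 genes (x axis) in CPM on a log axis, with 1 symbol per library and open triangles at the level of 3 counts where a library had 3 counts or fewer. Het1 (star) is highest for 9 genes, and *Rpe65* has no library above 3 counts.

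All 9 tested genes were highest in Het1, as were 14.8% of all genes tested. In 8 of them, all but *Mitf*, Het1 was at least 5 times the median of the other 6, as in 2.31% of genes tested. These counts describe the values that chose the genes. Per kb of exon, the order in Het1 was *Pmel* (140 CPM per kb), *Tyrp1* (20.6), *Dct* (16.6), *Trpm1* (7.94), *Ttr* (6.40), *Mlana* (5.77), *Tyr* (5.16), *Mitf* (1.83) and *Slc45a2* (1.27). In WT it was *Pmel* (7.33), *Tyrp1* (1.87), *Trpm1* (1.44), *Dct* (0.874), *Mitf* (0.738), *Mlana* (0.490), *Ttr* (0.420), *Tyr* (0.326) and *Slc45a2* (0.0969). *Trpm1* and *Dct* changed places between the 2 libraries and *Mitf* stood lower in the order in Het1, while neighbours within 1 library have no spread to set them apart.

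How the genes stood to each other within a library was then compared by their counts per 100 counts of *Pmel*, which sets the size of the library aside. Of the enzymes, *Dct* and *Tyr* kept close to *Pmel*. *Dct* was at 30.6 counts per 100 of *Pmel* (95% Wilson interval 30.1 to 31.1) in Het1 and at 20.2 to 35.6 in the others, and *Tyr* was at 11.4 in Het1 and at 10.3 to 15.2 in the others, a spread of 1.47 times over the 7 libraries. *Mlana* at 1.90 and *Slc45a2* at 1.18 in Het1 lay within or just under the range of the others, 1.33 to 3.08 and 1.27 to 1.90.

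*Mitf* and *Trpm1* did not keep this proportion. *Mitf* was at 3.53 counts per 100 of *Pmel* in Het1 and at 27.2 in WT, 27.1 in Het2, 17.3 in Het3, 12.3 in KO1, 16 in KO2 and 24.7 in KO3, so that Het1 was lowest. *Trpm1* was at 36.5 in Het1, 39.8 in KO1 and 35.3 in KO2, and at 126, 153, 110 and 142 in WT, Het2, Het3 and KO3. *Tyrp1* lay between, at 18.2 in Het1, 17.2 in KO1 and 20.1 in KO2 beside 24.9 to 34.9 in the other 4 libraries. *Ttr* was at 2.37 in Het1 and ranged from 1.42 in Het3 to 6.65 in KO2.

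**Figure D2:**
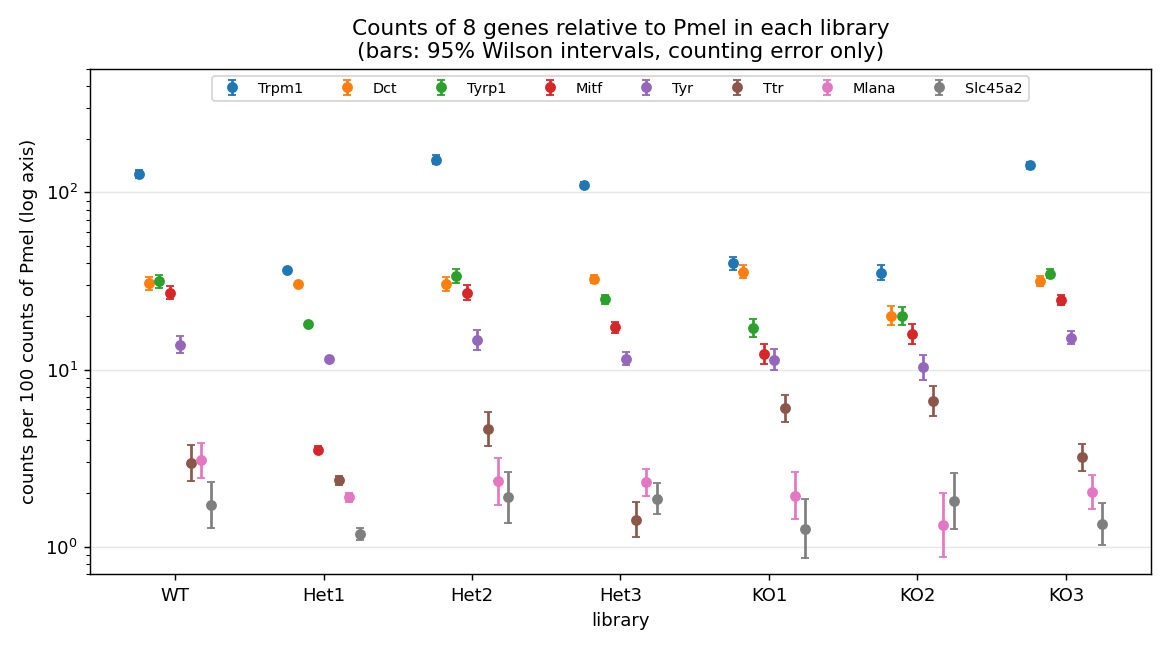
Counts of 8 genes per 100 counts of *Pmel* (y axis, log) in each library (x axis), with 95% Wilson intervals that cover counting error only. *Dct* stays between 20.2 and 35.6 and *Tyr* between 10.3 and 15.2, while *Trpm1* lies in a high set of 4 libraries and a low set of Het1, KO1 and KO2, and *Mitf* is lowest in Het1.

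The high melanogenic genes of Het1 were read beside other markers of the same cells. Of 24 further retinal pigment epithelium genes, 21 were tested, and their median ratio of Het1 to the other libraries was 1.35, beside 0.998 over all genes tested. Only *Mfrp*, a membrane protein of the pigment epithelium and ciliary epithelium, at 11 times, and *Rdh5*, a retinol dehydrogenase, at 5.09 times, reached 5. *Slc16a8*, *Slc4a5* and *Stra6* were at 4.85, 3.77 and 2.30 times, and 11 of the 21 were highest in Het1, beside 14.8% of all genes tested. Others were not raised. The channel gene *Best1* was at 0.942 CPM in Het1 and at 0.883 to 1.18 CPM in the other libraries, and *Kcnj13* was at 0.506 CPM in Het1 beside 0.504 CPM in WT and Het2. *Trpm3* and *Crim1*, among the most abundant genes of the list, were at 0.964 and 1.22 times. They were at 134 to 175 and 42.9 to 54.1 CPM in the other libraries, levels at which a small addition would hardly move the ratio. The summed level of the list was 607 CPM in Het1 and 438 to 512 CPM in the others. Of the 3 genes not tested, *C1qtnf5* was listed at 0 in every library, and *Sfrp5* and *Slc6a20a* had at most 12 counts. *C1qtnf5* lies wholly within the span of *Mfrp* on the same strand. Reads shared by overlapping genes may go uncounted, so its 0 is not read as absence, and this was not tested.

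Among 13 other melanosome pigment genes the median ratio was 3.98. *Gpnmb*, a relative of *Pmel*, was at 48.5 CPM in Het1 and at 0.996 to 4.88 CPM elsewhere, 25.7 times the median. *Gpr143*, the ocular albinism receptor, *Tspan10*, the exchanger *Slc24a5* and the transporter *Oca2* were at 18.3, 14.6, 7.10 and 6.68 times. *Mfsd12* and *Slc7a11*, which handle cystine, were at 0.940 and 1.19 times and are among the 3 most abundant of the list. *Rab38*, which carries the enzymes to the melanosome, was at 1.06 times. The general machinery of melanosome biogenesis (24 genes, led in abundance by *Myo5a*, *Ap3d1* and *Vps33a*) showed no such excess, with ratios from 0.818 to 1.25 and a median of 1.01.

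Neural crest markers were also measured. *Sox10*, the factor of melanoblasts and Schwann cells, was at 2.48 CPM in Het1 and at 0.106 to 0.395 CPM in the others. Het1 was 13.0 times their median. Per 100 counts of *Pmel*, *Sox10* stood at 0.775 in Het1 and at 0.682 to 1.25 in the rest. The latter rest on 14 to 60 counts of *Sox10*, with a Wilson interval of 0.405 to 1.15 in KO1. On this scale the pigment epithelium gene *Mfrp* was at 6.29 in Het1 and at 6.62 to 13.0 in the rest. *Gpnmb* was at 15.1 beside 7.72 to 14.2, *Oca2* at 3.80 beside 2.87 to 11.8 and *Rab38* at 1.54 beside 1.70 to 29.4. In CPM, *Erbb3* was at 3.32 times the median. *Pax3* was listed at 0 in Het1, and *Ednrb* and *Kit*, the most abundant of these 11 genes, were at 1.02 and 0.956 times. In the other libraries *Ednrb* was at 52.2 to 65.9 CPM and *Kit* at 50.4 to 56.7 CPM. Against such levels a ratio near 1 can hide a small addition, and which cells made them was not tested. Choroid plexus genes, of interest because that tissue makes *Ttr*, summed to 49.6 CPM in Het1 and to 5.91 to 20.4 CPM in the others, with *Clic6* at 9.47 and *Tmem72* at 16.8 times, and with *Folr1* and *Aqp1* at 1.23 and 1.59 times. Plasma protein genes of liver and yolk sac, where *Ttr* is also expressed, summed to 37.4 CPM in Het1 and to 2.05 to 3.76 CPM in the others. *Afp* was at 25.1 CPM in Het1 (340 times), *Apoa1* at 18.8 times and *Rbp4* at 1.57 times the median of the rest. *Apoc2* was listed at 0 throughout.

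Tissues outside the retina were high in the same library. Periocular mesenchyme genes (12, led by *Col1a2*, *Col1a1* and *Col3a1*) summed to 462 CPM in Het1 and to 16.9 to 61.0 CPM in the others. The 8 epidermal genes, led by *Krt15*, *Krt5* and *Krt10*, summed to 238 CPM in Het1, 77.4 CPM in KO3 and 16.4 to 20.9 CPM elsewhere. Skeletal muscle genes, led by *Myh3*, *Acta1* and *Mylpf*, summed to 327 CPM in Het1 and to 9.22 to 11.6 CPM elsewhere. All 14 tested muscle genes and 11 of 12 mesenchyme genes were highest in Het1, beside 9 of 9 of the pigment genes. Het3 and KO3, which came next in most pigment genes, also had the next highest mesenchyme sums, 43.9 and 61.0 CPM. Which cells the pigment counts came from was not tested.

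**Figure D3:**
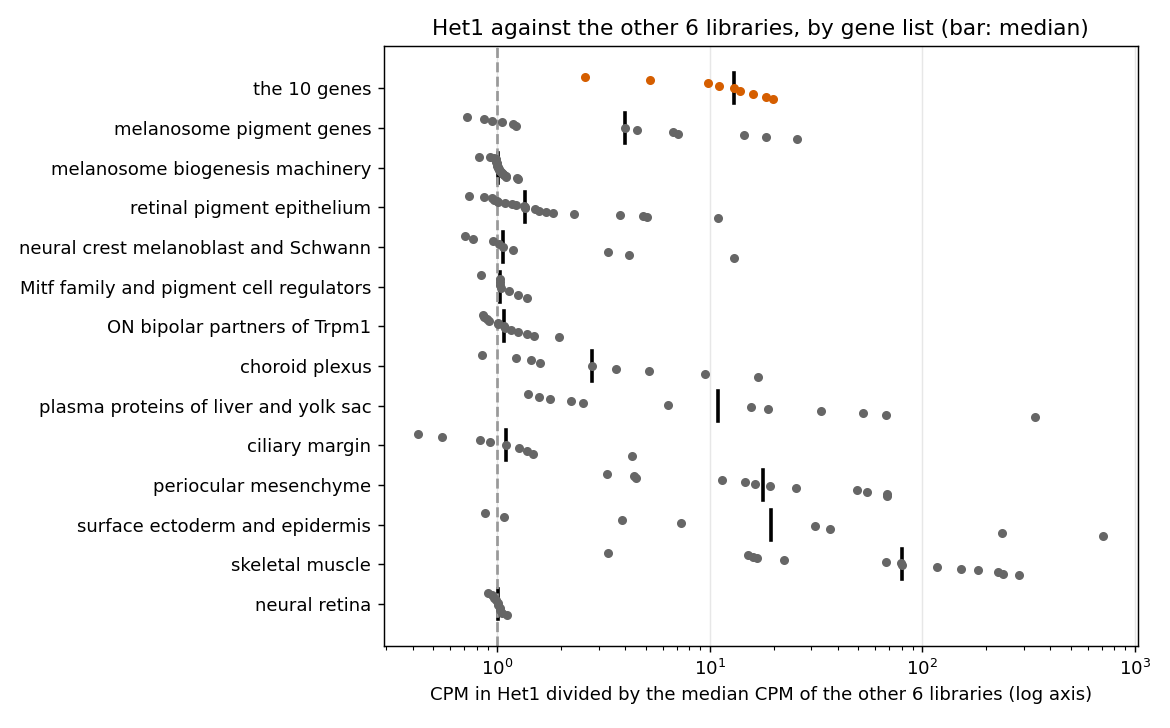
Level in Het1 divided by the median of the other 6 libraries (x axis, log) for each tested gene of the 10 genes and of 13 other lists (rows), with a bar at the median of each list. The pigment genes lie between 2.58 and 19.8, the melanosome machinery and the neural retina genes near 1, and the muscle genes have a median of 80.0.

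The comparison of KO with Het asks what loss of the second *Ptbp1* copy changed. With all 7 libraries in the fit, the 9 genes had log2 fold changes between -2.76 (*Mlana*, SE 1.09) and -0.94 (*Mitf*, SE 0.613), with *Pmel* at -2.69 (SE 1.11), *Dct* at -2.71 (SE 1.14), *Tyr* at -2.51 (SE 1.10) and *Ttr* at -1.70 (SE 1.0). None passed the limits used (adjusted p below 0.05 and a change of over 1.2-fold) in edgeR's quasi-likelihood test, beside 7.22% of all genes tested. At an unadjusted p under 0.05 there were 3 genes, and DESeq2 called 1, *Slc45a2* (log2 fold change -2.53). Nothing is read from these values, since Het1, whose level chose the genes, is 1 of the 3 Het libraries.

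Without Het1, where the whole table was fitted again, no difference passed the test. *Pmel* differed by -0.38 (SE 0.448, adjusted p = 0.637 by edgeR), *Dct* by -0.45 (SE 0.567), *Tyr* by -0.31 (SE 0.541) and *Tyrp1* by -0.42 (SE 0.642) on the log2 scale. *Mlana* was at -0.70 (SE 0.567), *Slc45a2* at -0.77 (SE 0.445, adjusted p = 0.327), *Mitf* at -0.44 (SE 0.604) and *Trpm1* at -0.81 (SE 0.921). None of the 9 genes was called by edgeR's quasi-likelihood test, 1 had an unadjusted p under 0.05, and DESeq2 called 0, where edgeR called 6.23% of all genes tested. The median of the 9 was -0.44, beside 0.0036 over all genes tested.

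*Ttr* was the 1 gene that stood on the other side. Without Het1 its difference was 0.60 on the log2 scale (SE 0.219, adjusted p = 0.153 by edgeR, unadjusted p = 0.0333), which did not pass the test. It was also the only 1 of the 9 in which Het2 and Het3 did not overlap the KO libraries. Such a separation was seen in 46.1% of all genes tested. For the other 8 genes the KO libraries overlapped Het2 and Het3, and KO3 was the highest KO library.

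**Figure D4:**
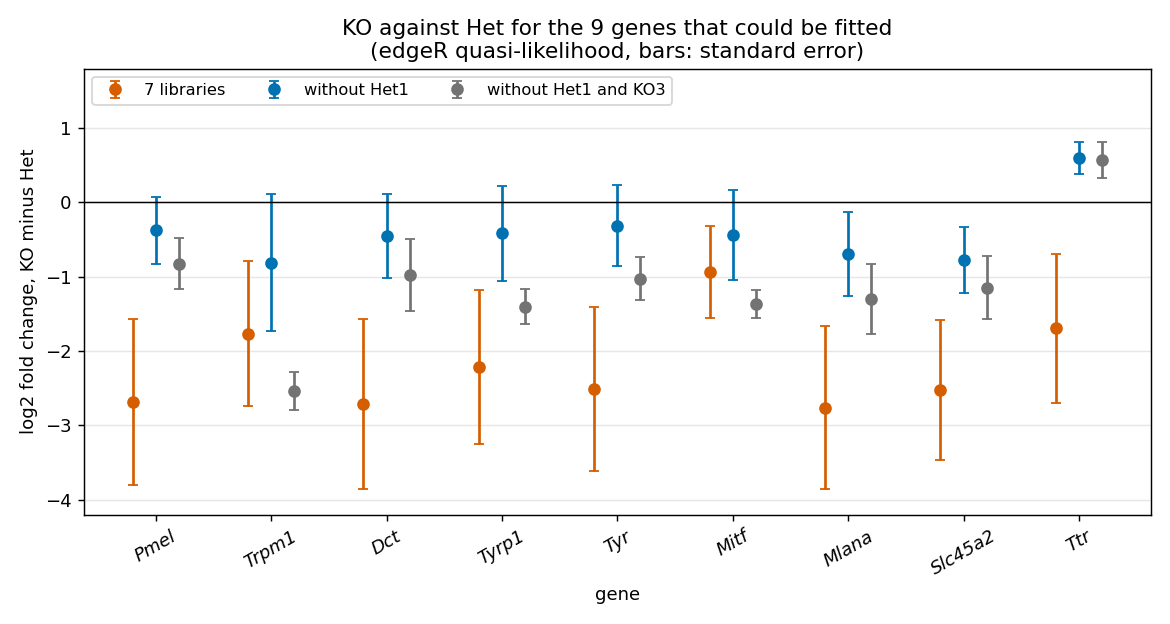
Log2 fold change of KO minus Het (y axis) with its standard error for 9 genes (x axis), from the fit of all 7 libraries, the fit without Het1 and the fit without Het1 and KO3. Leaving out Het1 moves all 9 values up and takes *Ttr* above 0. Leaving out KO3 as well moves the 8 melanogenic genes down, with the smallest errors for *Mitf*, *Tyrp1* and *Trpm1*.

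KO1 and KO2 were the 2 lowest of the 7 libraries in 6 of the 9 tested genes (*Tyr*, *Tyrp1*, *Mlana*, *Slc45a2*, *Mitf* and *Trpm1*), beside 12.2% of genes tested. For *Trpm1* and *Mitf* both stood under 0.5 of the lowest other library, a property of 1.26% of genes tested. The higher of the 2 was at 0.290 of the lowest other library for *Trpm1* and at 0.479 for *Mitf*, and just outside this limit was *Tyrp1* at 0.509. KO3 did not share the low values. *Trpm1* was at 41.9 CPM in KO3 against 6.16 and 4.44 CPM in KO1 and KO2, and *Mitf* at 7.29 against 1.91 and 2.01 CPM.

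The KO libraries thus disagreed on these genes, and the call without Het1 depended on KO3. Without KO3, and with Het1 kept, 2 of 9 genes passed the limits, *Mitf* at -1.87 and *Trpm1* at -3.49 on the log2 scale, beside 8.39% of all genes tested. Nothing is read from this count, since Het1 is in the fit. Without both Het1 and KO3, *Trpm1* (-2.53, SE 0.257, adjusted p = 0.00525 by edgeR), *Mitf* (-1.37, SE 0.187, adjusted p = 0.0104) and *Tyrp1* (-1.40, SE 0.233, adjusted p = 0.0161) fell, 3 of 9 genes beside 10.3% of all genes tested. The fit without both was chosen after the values were seen. KO3 differed from KO1 and KO2 in other measures as well. It came from 6 retinas and they from 4 each, its *Ptbp1* was 46.9 CPM against 27.9 and 6.04 CPM, and its *Krt5* was 24.4 CPM against 0 and 1.29 CPM. The part of these measures in the result was not tested.

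The genes that shared the low values of KO1 and KO2 were looked for among the fixed lists. *Rab38* was at 0.264 and 0.266 CPM in KO1 and KO2 and at 4.41 to 6.94 CPM in all other libraries, KO3 and Het1 included, and *Oca2* was at 0.445 and 0.555 CPM beside 1.82 to 12.2 CPM. *Tfec*, a relative of *Mitf*, was at 0.0226 and 0.0228 CPM and otherwise at 0.148 to 0.277 CPM. It had 3 counts in KO1 and in KO2, which is the depth limit, and 22 to 42 counts elsewhere. *Otx1*, a homeobox gene of the Otx family, was at 1.25 and 2.01 CPM and otherwise at 10.6 to 17.9 CPM. The channel gene *Kcnj13* and the transporter gene *Slc16a12* of the pigment epithelium list were likewise under 0.5 of the lowest other library. So were *Folr1* and *Aqp1*. *Kcnj13* had only 10 and 7 counts in KO1 and KO2. These genes were picked out after their values were seen.

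The ciliary margin is the rim of the retina where neural retina meets pigment epithelium. In 5 of its 9 genes KO1 and KO2 were likewise both under 0.5 of the lowest other library, beside 1.26% of genes tested. KO1 and KO2 were the 2 lowest libraries in 8 of the 9, beside 12.2% of genes tested. *Gja1*, a gap junction gene, was at 8.47 and 10.2 CPM in KO1 and KO2, at 125 CPM in KO3 and at 81.5 to 130 CPM in the Het and WT libraries. *Msx1*, *Wfdc1*, *Wls* and *Bmp4* had the same split, with *Bmp4* at 0.189 and 0.304 CPM in KO1 and KO2 and at 5.72 CPM in KO3. *Col9a1* and *Zic1*, the 2 most abundant genes of this list, and *Bmp7* and *Mfap4* were not under 0.5 of the lowest other library. In Het1 the margin genes were not raised as *Pmel* was, with *Msx1* at 0.424 and *Wfdc1* at 0.551 times the median of the others, and *Wls* the highest at 4.31 times. In KO against Het none of the 9 was called by edgeR in either fit (1 with an unadjusted p under 0.05 in each). DESeq2 called 1 with all libraries and 0 without Het1. Over all genes tested, edgeR called 7.22% with all libraries and 6.23% without Het1, so 0 calls among 9 genes says little. Without Het1 all 9 log2 fold changes were negative, with a median of -0.79.

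**Figure D5:**
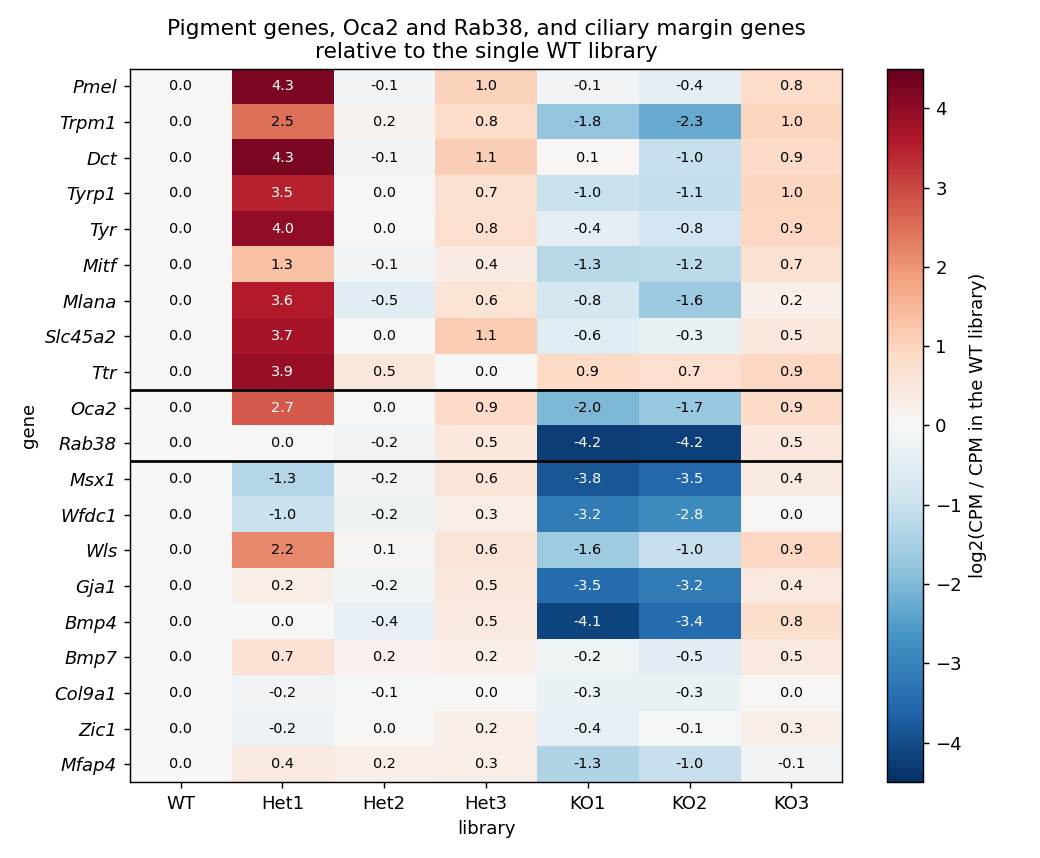
Log2 of the level in each library (columns) relative to the single WT library for 9 pigment genes, *Oca2* and *Rab38*, and 9 ciliary margin genes (rows). KO1 and KO2 are blue for *Trpm1*, *Mitf*, *Oca2*, *Rab38*, *Msx1*, *Wfdc1*, *Wls*, *Gja1* and *Bmp4* while KO3 is not, and Het1 is red for the pigment genes but not for *Rab38* or most margin genes.

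Other pigment cell genes did pass the KO against Het test. Of the 21 tested pigment epithelium genes, 4 fell in KO with all 7 libraries and none rose, beside 7.22% of all genes tested called in either direction. *Rgr*, a photoisomerase, was at 2.19, 1.88 and 1.89 CPM in Het and at 0.679, 0.836 and 0.901 CPM in KO (log2 fold change -1.30, SE 0.155, adjusted p = 0.00757 by edgeR). *Efemp1* (-0.90), the retinol transporter gene *Stra6* (-1.43) and *Crim1* (-0.28) were the others. Het1 is in this fit, where *Stra6* and *Crim1* were at 2.30 and 1.22 times the median of the other libraries. Neither was called without Het1. *Stra6* was then at -1.12 (adjusted p = 0.0549 by edgeR), and *Crim1* at -0.23 was under the fold limit. Without Het1, *Rgr* (-1.22) and *Efemp1* (-0.78) again fell, while *Rlbp1*, the retinaldehyde-binding protein of pigment epithelium and Müller glia, and *Enpp2* rose by 0.99 and 0.48. In that fit 6.23% of all genes tested were called. For *Rgr*, *Efemp1*, *Rlbp1* and *Enpp2*, Het2 and Het3 lay apart from KO1, KO2 and KO3, KO3 included, as in 46.1% of all genes tested. The same libraries gave the calls, so the separation adds nothing to them. The median over the list was -0.29 with Het1 and -0.09 without it.

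Of the 13 melanosome pigment genes 1 passed with all libraries, beside 7.22% of all genes tested. This was *Slc24a4*, which rose by 1.30 on the log2 scale (SE 0.272, adjusted p = 0.0316 by edgeR). It was at 0.383, 0.369 and 0.204 CPM in Het and at 0.830, 0.828 and 0.698 CPM in KO, and it rose by 1.46 without Het1. The list's median was -1.13 with Het1 and -0.52 without it. Of the 24 machinery genes, *Lyst* rose (0.50) and *Hps1* fell (-0.61) with all libraries, and without Het1 *Lyst* alone was called, at 0.49. Over all genes tested, 7.22% were called with all libraries and 6.23% without Het1. *S100b*, the 1 neural crest list gene called in either fit, rose by 1.29 and by 1.45. Among the 8 relatives and partners of *Mitf*, led in abundance by *Otx2*, *Sox9* and *Tfe3*, none was called by edgeR with all libraries (0 with an unadjusted p under 0.05, 0 by DESeq2), and *Bhlhe40* rose by 0.66 without Het1.

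*Trpm1* was also set beside 13 genes of the ON bipolar cascade that it serves in the mature retina. *Grm6*, the glutamate receptor above it, had at most 0.195 CPM, in WT, and 0.0294 CPM in Het1, where *Trpm1* was at 117 CPM. *Gpr179* and *Rgs11* rose in KO by 0.89 and 0.79 on the log2 scale with all libraries, and *Bhlhe23*, a bipolar cell transcription factor, fell by 1.88. Without Het1 these 3 were called again and *Gnb3* (0.61) and *Pcp2* (1.60) rose as well. Calls made up 7.22% of all genes tested with all libraries and 6.23% without Het1. *Gpr179* was at 8.18 to 10.5 CPM in the Het libraries and at 15.3 to 18.4 CPM in KO, with KO3 highest. No gene of this list was highest in Het1, beside 14.8% of genes tested. None had KO1 and KO2 under 0.5 of the lowest other library, beside 1.26% of genes tested. *Trpm1* showed both, but the absence of so rare a property from 13 genes says little.

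The genes most like the 10 in their pattern were ranked by Pearson's r of log2(CPM + 0.5) with the mean of the 10, among tested genes of at least 1 CPM on average outside the lists. Over the 7 libraries, which share the high value of Het1, these were *Bace2* (r = 0.998), *Timp3*, *Anxa2*, *Hspb8* and *Klf4*. *Bace2* was at 1.02 CPM in WT, at 9.31, 0.907 and 1.72 CPM in Het and at 0.702, 0.593 and 1.66 CPM in KO. Over the 6 libraries without Het1 they were *Ezr* (r = 0.991), *Ctsc*, *Glce*, *Bace2* and *Ddr2*. Such r values are the highest of 13621 genes ranked over few libraries, and they leave out the size of a change. *Glce* ran only from 41.9 to 48.0 CPM over these 6 libraries. With the mean of *Tyr*, *Tyrp1* and *Dct*, the 5 were *Bace2*, *Timp3*, *Anxa2*, *Klf4* and *Car12* over 7 libraries and *Selenbp1*, *Bace2*, *Lamb1*, *3110009E18Rik* and *Prex2* over 6. *Bace2*, a membrane protease, was thus the 1 gene in all 4 rankings. A ranking for *Rpe65* was not made, since it had at most 2 counts in any library and was below the filter.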

How the data were processed

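RNA of pooled E16 retinas was sequenced by the authors as stranded mRNA libraries (the labels name TRIzol, the methods a column kit). They aligned the reads to GRCm38 (mm10) with STAR within rMATS-turbo and counted genes with featureCounts on a GENCODE annotation. The deposited values are raw counts per gene, with 0 other value columns. Strand and multi-mapping settings of the counting are not given in the sources used here, so reads at the overlaps of *Pmel* with *Cdk2* and *Dgka*, of *Dct* with *4930435M08Rik*, of *Mitf* with *Gm15531* and of *Trpm1* with *Mir211*, *Mir6416*, *Gm44719* and *Gm44722* are uncertain. Nothing states that the pools came from separate litters, so p-values measure the spread between these pools.

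The fit used edgeR 4.0.16 with R 4.3.3 (filterByExpr, TMM with factors 0.988 to 1.03, glmQLFit and glmQLFTest, 1 mean per genotype). Of 48440 genes 20019 were tested, with Benjamini-Hochberg adjustment over all of them. The standard error is the size of the log2 fold change over the square root of F. Calls needed an adjusted p below 0.05 and a change of over 1.2-fold either way, as in the study. The fit without Het1 tested 19703 genes. Scripts were tested on simulated data. The members and the 13 other gene lists were chosen with earlier results of these data known. From each list the genes called in either fit and the 3 most abundant are named, with likeness as described in the text, and other genes were named after their values were seen. Results for some genes are not reported here. Replicates differed by 14.0 to 53.2 times the counting variance, so none was a copy. Gene positions and exon lengths come from a GENCODE annotation of GRCm38. Depth limits were taken as 3 counts per library, and Wilson intervals at 95% cover counting error only. Alternatives were DESeq2 1.42.0, RLE and upper-quartile normalization, other count filters, no WT library, a replicate block and each library left out.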

Additional observations from a re-analysis of the deposited data

How the results depend on the processing

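The number of genes called between KO and Het was 1445, and 386 to 1674 when single libraries were left out, lowest without Het2 (386), Het3 (496) or KO2 (612). Of the 9 tested pigment genes 0 were called with all libraries, 1 by DESeq2 (*Slc45a2*, adjusted p = 0.00922 by DESeq2), and 0 to 2 when a library was left out, the 2 (*Mitf* and *Trpm1*) without KO3. Without Het1, 0 to 3 were called when a further library was left out, the 3 (*Tyrp1*, *Mitf* and *Trpm1*) again without KO3. Of the pigment epithelium genes 4 were called, and 2 to 8 with a library left out (2 without Het3 or KO2, 8 without KO3). Of the melanosome pigment genes 1 was called, 4 by DESeq2, and 0 to 3 with a library left out (0 without Het2, Het3, KO1 or KO2, 3 without KO3). These choices left fewer libraries in the fit, and the cause was otherwise not tested. *Ttr* turned to 0.60 without Het1, the highest of its values with a library left out, and the lowest was -2.20. With Het1 and Het3 both left out, where Het2 alone stood for Het and was assumed to vary like the other groups, *Pmel*, *Dct* and *Tyr* turned to 0.31, 0.30 and 0.14, and without Het1 and KO2 *Tyr* turned to 0.00069, none of them called. With a further library left out, the lowest values without Het1 were -0.84 for *Pmel*, -0.98 for *Dct* and -1.02 for *Tyr*. Same-numbered Het and KO libraries deviated with correlations of -0.143, 0.249 and -0.0063, beside -0.358 to 0.237 for differently numbered ones. With 3 libraries in each group these values cannot decide whether the numbers pair the libraries. With the replicate number as a block 1268 genes, 0 of the pigment genes, 3 pigment epithelium genes and 1 melanosome pigment gene were called. No other alternative changed the call or the direction of a pigment gene, and scaling by library totals without TMM moved the Het1 ratio of no gene by 10% or more. The depth limits *Rpe65* alone, while *Mlana* and *Slc45a2* rest on 22 to 120 and 26 to 97 counts outside Het1. With a pseudocount of 0.1 or 2, at least 4 of the 5 genes most like the 10 genes or the tyrosinase family were shared.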

Other observations

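Among the lists read beside the pigment genes, the neural retina genes held 2 that fell in KO, *Fgf15* (log2 fold change -0.49) and *Atoh7* (-0.81), and both fell again without Het1 (-0.54 and -0.88), with *Pax6*, among the most abundant of that list, at -0.05 and not called. *Fgf15* is a growth factor of retinal progenitors and *Atoh7* the factor for ganglion cell competence. The share of calls over all genes tested was 7.22% with all libraries and 6.23% without Het1. *Kcne2*, a channel subunit of the choroid plexus list, was the 1 gene of that list called, at 2.37 without Het1. Its levels were 0.101 CPM in WT, 0.524, 0.0420 and 0.0923 CPM in the Het libraries and 0.498, 0.274 and 0.300 CPM in the KO libraries. With all libraries no gene of that list was called by edgeR (0 with an unadjusted p under 0.05, 0 by DESeq2). *Krt10* rose by 0.28 with all libraries and was the 1 epidermal gene called, and without Het1 none was (1 with an unadjusted p under 0.05, 0 by DESeq2).

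No plasma protein, mesenchyme or muscle gene was called by edgeR in either fit. With all libraries 8, 2 and 11 genes of these lists had an unadjusted p under 0.05 and DESeq2 called 2, 2 and 1, and without Het1 these numbers were 2, 2 and 2, with 0, 0 and 1 called by DESeq2.

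The patterns of *Trpm1* and of *Ttr* were followed singly after their values were seen. Over the 6 libraries without Het1, the genes most like *Trpm1* were *Ptprg*, *Ogn*, *Ctsh*, *Smim3* and *Kcnq5*. Likeness by r leaves out the size of a change. Over these libraries *Ptprg* ran from 178 to 191 CPM and *Smim3* from 9.25 to 10.8 CPM, while *Trpm1* ran from 4.44 to 41.9 CPM. *Ogn*, an extracellular matrix gene, was at 0.460 and 0.456 CPM in KO1 and KO2, at 4.14 CPM in KO3, at 2.59 CPM in WT, and at 15.1, 2.57 and 3.82 CPM in the Het libraries. Those most like *Ttr* were *Ipcef1*, *Gm20632*, *Acbd4*, *Hemk1* and *Rab12*, none of which was in the *Trpm1* ranking. Over the 7 libraries *Ttr* was most like *Col4a4*, *Smyd1*, *Mybpc1*, *Prss35* and *Plce1*, and *Mybpc1*, a muscle gene, was at 9.49 CPM in Het1 and at 0.171 to 0.616 CPM in the others.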
